A study of Pyrus betulifolia with 6 samples.

Results

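Class III peroxidases are heme enzymes that plants secrete into the cell wall. There they use hydrogen peroxide to oxidise phenolic compounds, which joins monolignols into lignin and cross-links wall proteins such as extensins, and some also produce reactive oxygen species. They form a large gene family in flowering plants, whose members differ in place and time of expression, and in roots they are known for lignified barriers, root hair growth and the balance of reactive oxygen species at the root tip. Boron (B) itself is held in the cell wall by pectin, so the genes of wall enzymes are of interest where B is withheld.

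The genes were chosen by their description. Of the 37815 genes in the deposited table, 90 have a protein match described as a peroxidase that is not an ascorbate, glutathione or thioredoxin peroxidase. The description was checked against the protein domains in the same table, and 89 of the 90 genes carry the plant peroxidase domain and the enzyme class of secreted peroxidases. The exception is LOC108867204, described as OVEREXPRESSOR OF CATIONIC PEROXIDASE 3, which has a homeodomain and is known in Arabidopsis as a regulator of defence responses and not as a peroxidase. It was kept in the counts because the rule takes it in, and with it removed and the 12 genes that the domain and enzyme class would add, the calls given below stay at 8 higher and 8 lower. The descriptions number the genes after the best match, mostly an Arabidopsis number, and letters such as P7, N1, N and A2 go back to enzymes of turnip, tobacco and horseradish.

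Root tips of P. betulaefolia, a pear used as a rootstock and raised here from seed, were collected after 24 h in nutrient solution without B (B deficiency) or with 0.045 mM B (control). All 6 libraries are of wild-type plants, 3 per group, and the labels call the libraries of a group biological replicates. By the methods of the study only a handful of plants per treatment were harvested, at random, and how they were divided among the libraries of a group is not stated there. The deposited values are FPKM, the fragments of a gene per kilobase of transcript and of sequencing depth, and they can be compared between genes because length is taken into account. The reads were mapped to the genome of another pear, P. bretschneideri. Pear holds many near copies of a gene, among which the reads were divided by estimation, so values of individual peroxidase genes carry an added uncertainty wherever close copies exist. In root tips a lower FPKM can come from fewer cells of a type or from less RNA per cell, and these cannot be told apart.

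The libraries summed to between 951246 and 971102 FPKM, and 31364 to 31645 genes were above 0 in a library. B deficiency library 2 stood apart from libraries 1 and 3 of its group. In the median gene tested, it differed from the mean of these libraries by 0.203 on the log2(FPKM + 0.1) scale, whereas libraries 1 and 3 differed from each other by 0.119. In the peroxidase genes the deviation was larger, with a median of 0.458 for library 2 and 0.15 between libraries 1 and 3. Markers of the root tip were present, since 15 of 18 root meristem genes (PLETHORA-type AP2, SCARECROW and SHORT-ROOT genes) averaged 1 FPKM or more. The 18 genes summed to between 128 and 134 FPKM under B deficiency and between 142 and 148 FPKM in control roots. By the thresholds given below, no gene of this list was called. The 4 root cap genes SOMBRERO and BEARSKIN2 summed to between 18.0 and 24.6 FPKM under B deficiency and between 34.1 and 35.7 FPKM in control roots. Among them only LOC103956584, a BEARSKIN2 gene, was called lower. Expansin-A7, a marker of root hair cells, had 1.84, 2.13 and 2.43 FPKM under B deficiency and 8.76, 12.3 and 8.28 FPKM in control roots. The other 7 genes of the root hair list are ROOT HAIR DEFECTIVE 3 genes, which are broadly used. Of the 8 genes of the list 2 were called lower, none was called higher, and 2 had a log2 fold change above 0. Their sum was between 155 and 192 FPKM in B deficiency and between 213 and 214 FPKM in the control. The part of these cell types in the peroxidase results was not tested. Of 32 leaf genes for chlorophyll-binding proteins and the small subunit of Rubisco, 10 averaged 1 FPKM or more, and their sum, between 575 and 639 FPKM, came mostly from 1 small subunit gene.

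Among the 90 genes chosen by description, a few held most of the FPKM. Summed over them, the control libraries had 3805, 3794 and 3803 FPKM, and B deficiency libraries 1, 2 and 3 had 4772, 3895 and 4750 FPKM. Every B deficiency library lay above every control library, but library 2 did so by little, and the mean of B deficiency was 1.18 times that of the control with it and 1.25 times without it. As a share of all FPKM in a library, the 90 genes held 0.398% to 0.400% in the control and 0.406% to 0.492% in B deficiency. The 5 genes with the highest mean gave between 64.9% and 70.1% of this sum in a library. The description leaves out abundant genes that the domain and enzyme class would take in, and these values depend on it. LOC103951047, described only as a hypothetical protein, had 1223, 1378 and 1221 FPKM under B deficiency and 1374, 1368 and 1347 FPKM in control roots (log2 fold change -0.10, adjusted p = 0.275 from limma). LOC103948174, described as POD4, had 776, 849 and 772 FPKM against 791, 797 and 800 FPKM (log2 fold change 0.0046, adjusted p = 0.96). In both, the groups overlapped, and library 2 was the highest of its group. Over the 101 genes with domain and enzyme class, B deficiency had 6833, 6184 and 6806 FPKM and the control had 6006, 6002 and 5992 FPKM, a ratio of 1.10 (1.14 without library 2). They held 0.628% to 0.631% of a control library and 0.645% to 0.704% of a B deficiency library. Among the 90 genes, levels fell off steeply. The mean was at least 100 FPKM in 8 genes and at least 10 FPKM in 30, whereas 13 genes were listed at 0 in all 6 libraries, among them all 4 peroxidase 41-like genes.

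**Figure D1:**
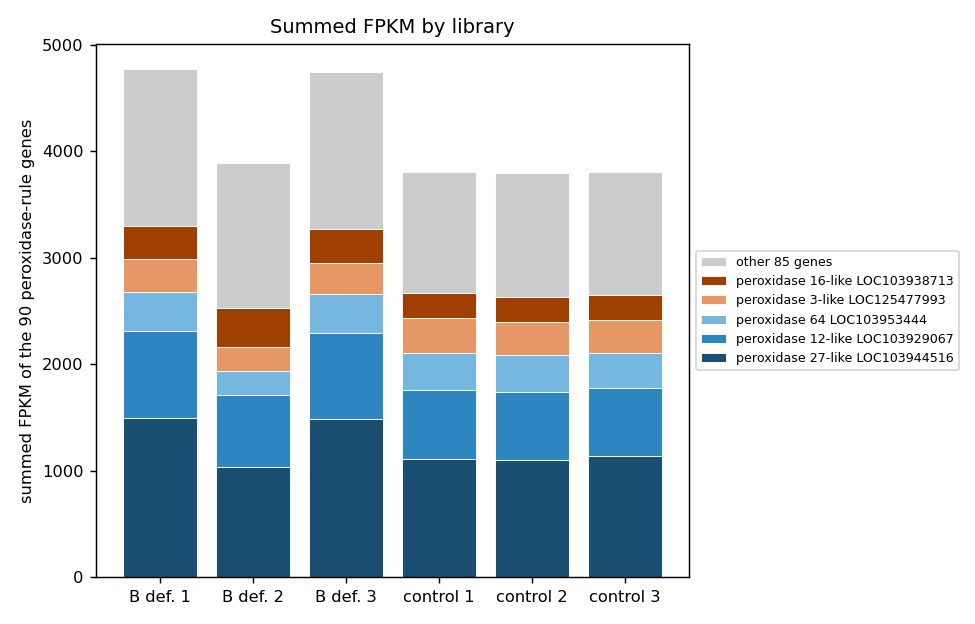
Summed FPKM of the 90 genes in each library (bars from 0), with the 5 genes of highest mean in colour and the other genes in grey. The control bars lie close together at 3794 to 3805 FPKM, and B deficiency library 2 (3895 FPKM) is nearer to them than to libraries 1 and 3.

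Differential expression was tested with limma on log2(FPKM + 0.1) over the 28129 genes averaging 0.5 FPKM or more. A gene was called when its log2FC, the log2 fold change of B deficiency over control, was at or beyond 1 in either direction with a Benjamini-Hochberg adjusted p under 0.05. These are the thresholds of the study, and on this scale the change of low genes is understated. SE is the standard error of a log2FC. Of the 90 genes, 60 reached the minimum mean, 17 had values below it and 13 were the genes listed at 0. Among the 60, 8 were called higher and 8 were called lower in B deficiency, 13.3% in each direction. Over all genes tested, 4.37% were called higher and 3.83% lower, so the peroxidase share was above the background both ways. Of the 16 called genes, 2 had a mean under 0.5 FPKM in 1 group and passed the minimum only through the other. The groups did not overlap in any of the 16 called genes. They did not overlap in 34 of the 60 genes tested (56.7%), 14 of them higher and 20 lower in B deficiency. Over all genes tested the groups did not overlap in 45.1%, with 18.5% higher and 26.6% lower. The lean to lower values was thus present over all genes as well.

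The changes went both ways. The median log2FC of the 60 genes was -0.07, and that of all genes tested was -0.05. The median size of the change regardless of direction was 0.614 in the peroxidase genes and 0.233 over all genes. A further 11 genes had an adjusted p under 0.05 but a smaller fold, 5 of them higher and 6 lower, so that 27 of 60 genes (45.0%) passed the p threshold, against 27.3% of all genes tested. Without B deficiency library 2, 19 of the 60 genes were called (31.7%, against 9.05% of all genes), 9 higher (against 4.64%) and 10 lower (against 4.4%), and the median log2FC was 0.04.

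**Figure D2:**
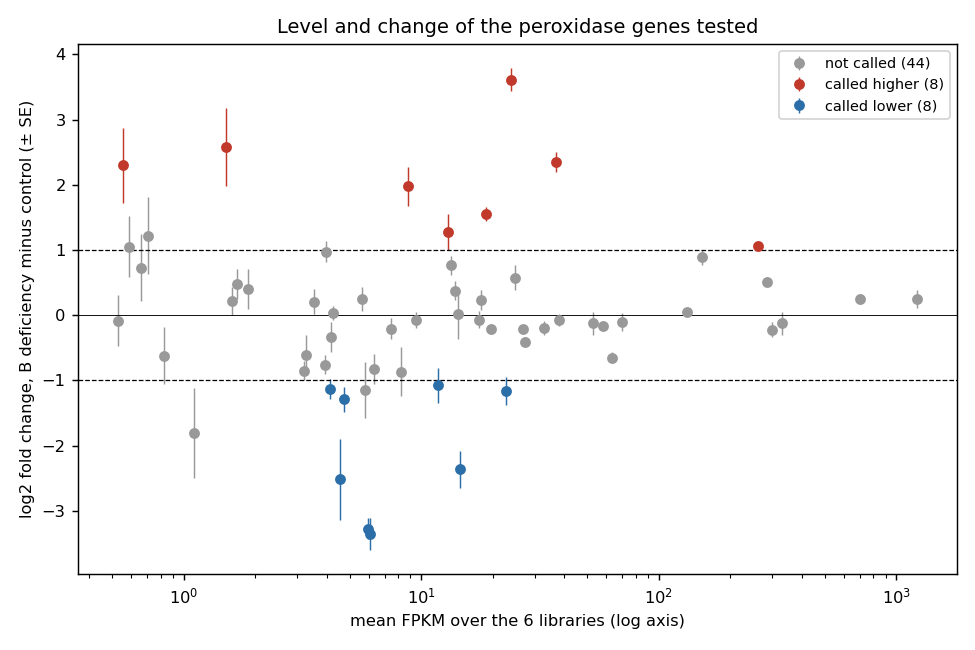
Mean FPKM (log axis) and log2FC with its SE for the 60 peroxidase genes tested, with dashed lines at the minimum fold of 1. Called genes lie on both sides of 0, and of the 8 genes averaging 100 FPKM or more only the peroxidase 73-like gene is past the minimum fold.

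The largest rise was in a P7-like gene, LOC103955141. It had 44.9, 35.2 and 51.9 FPKM without B and 3.78, 2.80 and 3.90 FPKM in control roots libraries. All B deficiency values lay far above the control, with a log2FC of 3.61 (SE 0.176, adjusted p = 3.1e-05 from limma), a 12.2-fold rise. Both cationic peroxidase 1-like genes that could be tested rose by less than this gene. They are named after an enzyme of peanut. LOC103962173 had 67.2, 48.1 and 69.9 FPKM under B deficiency and 12.8, 10.7 and 12.1 FPKM in control roots, a log2FC of 2.35 (SE 0.148, adjusted p = 7.6e-05). The second gene, LOC103961180, was much lower, with 3.27, 1.95 and 2.45 FPKM against 0.07, 0.42 and 0.84 FPKM (log2FC 2.58, SE 0.598, adjusted p = 0.0179). Its groups did not overlap, but its call was lost without B deficiency library 1 (adjusted p = 0.0638), without B deficiency library 3 (0.0539) and without control library 2 (0.0515).

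The N1-like genes, named after a tobacco peroxidase, were all on the higher side in B deficiency except the lowest of them. LOC103946278 had 26.3, 31.0 and 26.5 FPKM under B deficiency and 10.8, 8.62 and 9.06 FPKM in control roots (log2FC 1.55, SE 0.11, adjusted p = 0.000123 from limma). LOC103946287 had 11.2, 19.98 and 11.1 FPKM against 3.41, 4.62 and 2.40 FPKM (log2FC 1.98, SE 0.297, adjusted p = 0.00302). These genes were called, and library 2 was the highest of its group in each. LOC103954252 had 19.7, 13.9 and 16.8 FPKM under B deficiency and 9.73, 10.9 and 8.63 FPKM in control roots, and its log2FC of 0.77 (adjusted p = 0.00795) lay under the minimum fold. The other N1-like genes were near the minimum level. LOC103946288 had 0.73, 2.11 and 0.40 FPKM against 0.20, 0.33 and 0.46 FPKM, with overlapping groups (log2FC 1.22, adjusted p = 0.168), and LOC103946279 had means of 0.50 and 0.560 FPKM (log2FC -0.08). Only 1 gene is described as N-like, after the neutral peroxidase of horseradish. This gene, LOC103954074, had 21.3, 11.0 and 23.5 FPKM under B deficiency and 7.68, 6.29 and 7.81 FPKM in control roots (log2FC 1.28, SE 0.272, adjusted p = 0.0129), and it was not called without control library 2 (adjusted p = 0.0566).

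The most abundant called gene was the peroxidase 73-like gene LOC103934752. In Arabidopsis, PRX73 is known for its part in root hair growth through the cross-linking of extensins. The pear gene had 360, 352 and 352 FPKM under B deficiency and 163, 175 and 171 FPKM in control roots, so the libraries of each group, library 2 included, were close to each other and the groups far apart. Its log2FC of 1.06 (SE 0.0470, adjusted p = 2.3e-05 from limma) was the smallest of the called genes and lay just inside the minimum fold, and it was between 1.03 and 1.09 with each library left out in turn. In the same samples 2 of the 8 genes of the root hair list given above were called lower. They are expansin-A7 and a gene of the broadly used ROOT HAIR DEFECTIVE 3 type, and the part of root hair cells in the result was not tested. Just outside the minimum fold was the peroxidase 5-like gene LOC103951563, with 6.20, 5.36 and 4.33 FPKM under B deficiency and 2.36, 2.83 and 2.69 FPKM in control roots (log2FC 0.97, adjusted p = 0.00475). It was called at 1.02 with median-of-ratios scaling and with quantile normalization. The last of the 8 rises was in a low gene, the peroxidase 4-like LOC103958946, with 1.25, 0.66 and 1.00 FPKM against 0.18, 0 and 0.24 FPKM (log2FC 2.30, SE 0.576, adjusted p = 0.024). At these levels a few fragments decide the value, and the call was lost without B deficiency library 1 (adjusted p = 0.0764), without library 3 (0.072) and with log2(FPKM + 1), where the log2FC was 0.78.

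**Figure D3:**
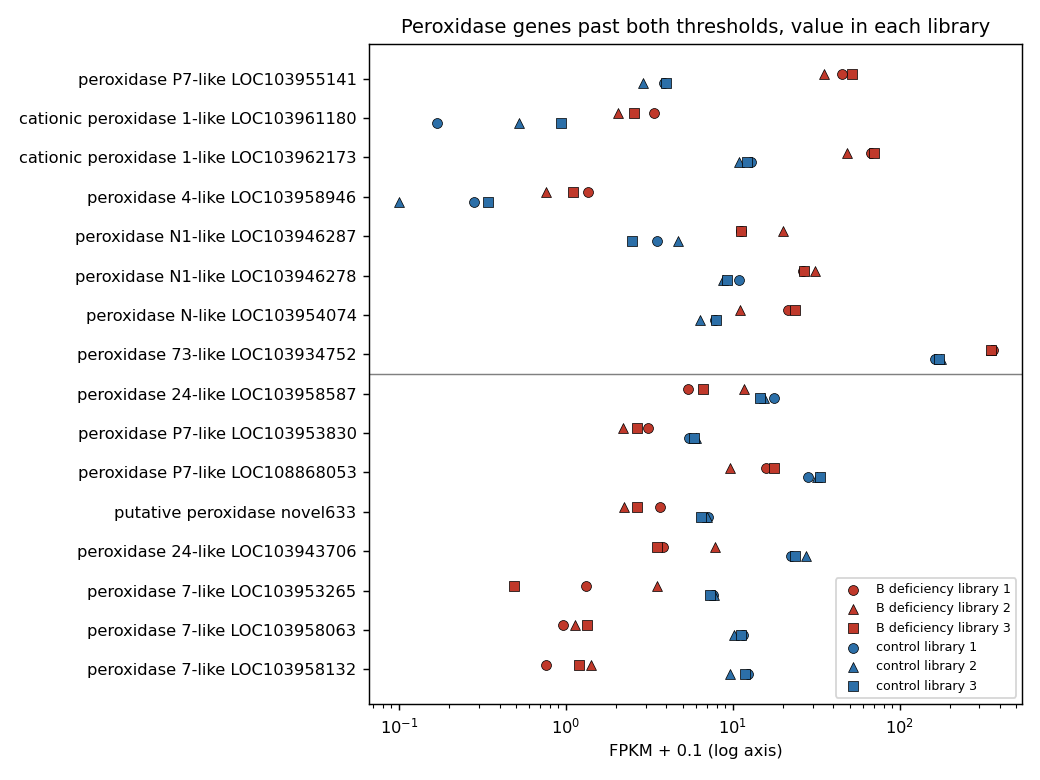
FPKM + 0.1 (log axis) of the 16 called peroxidase genes in each library, with B deficiency in red, control in blue and the marker shape giving the library number. The 8 genes above the line rose and the 8 below it fell, and the groups do not overlap in any of them.

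The largest falls were in the peroxidase 7-like genes, and all 3 that could be tested were called lower. LOC103958132 had 0.66, 1.32 and 1.10 FPKM under B deficiency and 12.2, 9.49 and 11.7 FPKM in control roots (log2FC -3.36, SE 0.243, adjusted p = 0.000132 from limma). LOC103958063 had nearly the same values, with 0.86, 1.03 and 1.24 FPKM against 11.5, 10 and 11.1 FPKM (log2FC -3.27, SE 0.158, adjusted p = 3e-05). The control was thus about 10.2 and 9.64 times higher in this pair, and whether their reads can be told apart is not known from the table. LOC103953265 had 7.53, 7.56 and 7.16 FPKM in control roots, but its B deficiency libraries were spread widely at 1.22, 3.41 and 0.39 FPKM (log2FC -2.52, SE 0.619, adjusted p = 0.0223). Its adjusted p was between 0.0637 and 0.0764 without B deficiency library 1 or without any 1 of the control libraries. The fourth peroxidase 7-like gene, LOC103953352, was below the minimum level, listed at 0 throughout B deficiency and at 0.26, 0.34 and 0 FPKM in control roots.

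Both peroxidase 24-like genes were called lower, and in both B deficiency library 2 lay nearest to the control. LOC103943706 had 3.70, 7.69 and 3.43 FPKM under B deficiency and 22.1, 27.2 and 23.3 FPKM in control roots (log2FC -2.36, SE 0.286, adjusted p = 0.00117 from limma). LOC103958587 had 5.27, 11.6 and 6.50 FPKM against 17.6, 15.2 and 14.4 FPKM (log2FC -1.08, SE 0.267, adjusted p = 0.023). The second call was the least stable of the 16, since it stood in only 1 of the 6 fits with a library left out, the one without B deficiency library 2 (log2FC -1.40). Without any 1 of the other libraries its adjusted p was between 0.0586 and 0.0883.

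The P7-like genes were the largest group by name, with 8 members, and they moved in both directions. Beside the 12.2-fold rise of LOC103955141, LOC108868053 fell from 28.1, 31.9 and 33.0 FPKM in control roots to 15.7, 9.57 and 17.5 FPKM in B deficiency (log2FC -1.16, SE 0.211, adjusted p = 0.00687 from limma). Here library 2 was the lowest, and without it the log2FC was -0.90 and the gene was not called. LOC103953830 fell from 5.36, 5.91 and 5.76 FPKM to 3.00, 2.11 and 2.55 FPKM (log2FC -1.14, adjusted p = 0.00184), and it was not called with log2(FPKM + 1), where the log2FC was -0.92. In the control the most abundant P7-like gene was LOC103958949, with 73.2, 71.4 and 71.5 FPKM, and B deficiency had 75.6, 51.98 and 76.6 FPKM. Its groups overlapped (log2FC -0.10, adjusted p = 0.634), and the sign turned to 0.08 without library 2 and to 0.04 with library weights. The other tested P7-like genes, LOC125480127 and LOC103945511, had log2FC values of 0.41 and 0.73 with overlapping groups, and the last 2 were listed at 0. The eighth fall was in novel633, a locus that the table numbers itself and describes as a putative peroxidase, with 3.58, 2.12 and 2.56 FPKM against 6.97, 6.87 and 6.33 FPKM in control roots (log2FC -1.29, SE 0.190, adjusted p = 0.00276).

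**Figure D4:**
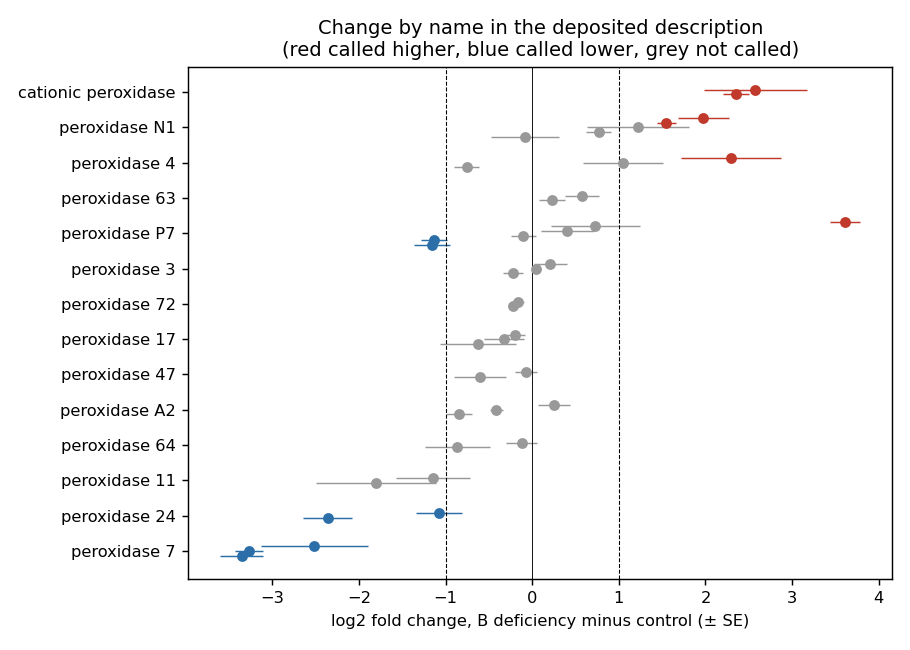
Log2FC with its SE for the tested peroxidase genes of each name with at least 2 tested genes, ordered by their median. All 3 peroxidase 7 genes and both peroxidase 24 genes are called lower and both cationic peroxidase genes higher, whereas the P7 genes run from -1.16 to 3.61.

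Of the 90 genes, the 2 most abundant changed little. The peroxidase 27-like gene LOC103944516 alone held 29.7% of their mean FPKM, and 19.5% of that of the 101 genes with domain and enzyme class, where it ranked behind LOC103951047. It had 1497, 1032 and 1484 FPKM under B deficiency and 1113, 1097 and 1135 FPKM in control roots, so libraries 1 and 3 were above the control and library 2 was below it. The log2FC was 0.24 (95% interval -0.08 to 0.57, adjusted p = 0.239 from limma), and without library 2 it was 0.42 (adjusted p = 2.24e-05). The peroxidase 12-like gene LOC103929067 had 813, 677 and 808 FPKM under B deficiency and 647, 645 and 637 FPKM in control roots. Its groups did not overlap, and the log2FC of 0.25 had an adjusted p of 0.0499. Without library 2 the adjusted p was 3.88e-05. Without any 1 of the other libraries it was between 0.134 and 0.15. The intervals of both genes lie well under the minimum fold.

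Peroxidase 64 and peroxidase 72 are names with a known role in lignified tissue. In Arabidopsis, PRX64 is needed for the lignin of the Casparian strip, the barrier around the vascular tissue of roots, and PRX72 for the lignin of stems. The abundant peroxidase 64 gene, LOC103953444, had 366, 226 and 364 FPKM under B deficiency and 342, 343 and 330 FPKM in control roots. Library 2 was far below all others, and the log2FC was -0.12 (95% interval -0.54 to 0.29, adjusted p = 0.654 from limma) with it and 0.11 (adjusted p = 0.0165) without it. The second peroxidase 64 gene, LOC125475713, had 7.96, 2.77 and 7.75 FPKM against 10.5, 9.61 and 10.6 FPKM (log2FC -0.86, adjusted p = 0.131). Library 2 was again the lowest, and without it the log2FC was -0.37. The peroxidase 72-like genes had slightly lower means in B deficiency. LOC125471765 had means of 54.9 and 61.4 FPKM under B deficiency and control (log2FC -0.17, adjusted p = 0.114 from limma). LOC103937821 had 24.8 and 28.8 FPKM and passed the p threshold (log2FC -0.22, adjusted p = 0.0387). It did not pass with median-of-ratios scaling (adjusted p = 0.0926). Without any 1 library other than B deficiency library 2 its adjusted p was between 0.0539 and 0.132. In both peroxidase 72-like genes the B deficiency libraries lay below all control libraries, but by far less than the minimum fold. Of the peroxidase 4-like genes, a name that stands for an enzyme of stem lignin in Arabidopsis, LOC103953768 had 2.86, 2.49 and 3.32 FPKM against 4.57, 5.50 and 4.75 FPKM (log2FC -0.76, adjusted p = 0.00931). It thus differed in the direction opposite to the called gene LOC103958946. The third, LOC103945527, had overlapping groups near the minimum level (log2FC 1.05, adjusted p = 0.136).

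Among the abundant genes, some differed clearly between the groups by less than the minimum fold. The peroxidase 21 gene LOC103948810 had 214, 161 and 218 FPKM under B deficiency and 99.98, 107 and 111 FPKM in control roots (log2FC 0.89, SE 0.116, adjusted p = 0.00169 from limma). Without library 2 its log2FC was 1.03 and it was called. The peroxidase 16-like gene LOC103938713 had 315, 368 and 320 FPKM against 235, 236 and 229 FPKM (log2FC 0.51, adjusted p = 0.0017). On the other side, the peroxidase 50-like gene LOC103936355 had 51.8, 44.02 and 52.7 FPKM against 72.7, 78.9 and 80.9 FPKM (log2FC -0.65, adjusted p = 0.0015). In none of these did the groups overlap. Among the less abundant genes, the peroxidase A2-like LOC103963956 was lower as well, with 2.48, 2.40 and 1.90 FPKM against 4.29, 4.14 and 3.94 FPKM (log2FC -0.85, adjusted p = 0.00569). In Arabidopsis, PRX3 is a cold-induced enzyme of roots. The pear peroxidase 3 genes above 100 FPKM, LOC125477993 and LOC103934243, had log2FC values of -0.22 (95% interval -0.50 to 0.05) and 0.05 (-0.06 to 0.16), and neither passed the p threshold.

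In 20 of the 60 genes (33.3%) library 2 lay more than 1.5 times above or below the mean of libraries 1 and 3, against 14.5% of all genes tested, and the deviation was upward in 10 and downward in 10. The peroxidase 11 genes show its weight best. LOC103947315 had 2.29, 7.48 and 2.19 FPKM under B deficiency and 7.53, 7.63 and 7.56 FPKM in control roots. Libraries 1 and 3 were thus far below the control and library 2 was at its level. The log2FC was -1.15 (adjusted p = 0.0883 from limma) with library 2 and -1.71 (adjusted p = 6.15e-05) without it. LOC103946699 had the same pattern at a lower level, with 0.21, 1.5 and 0.13 FPKM against 1.43, 1.55 and 1.81 FPKM (log2FC -1.80, adjusted p = 0.0956, and -2.66, adjusted p = 0.000845, without library 2). The peroxidase 20 gene LOC103960463, with 3.59, 6.66 and 3.75 FPKM against 8.29, 7.33 and 8.44 FPKM, was at -0.82 with library 2 and was called at -1.10 without it. The peroxidase 9 gene LOC103928523 deviated downward, with 19.7, 6.70 and 19.2 FPKM against 14.3, 13.1 and 12.9 FPKM, so library 2 was below the control and the others were above it. In all, 4 genes were called only without library 2 (peroxidase 21, both peroxidase 11 genes and peroxidase 20), and 1 was called only with it (LOC108868053). The genes of this paragraph that the rule for named genes did not cover were picked after their values had been seen.

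**Figure D5:**
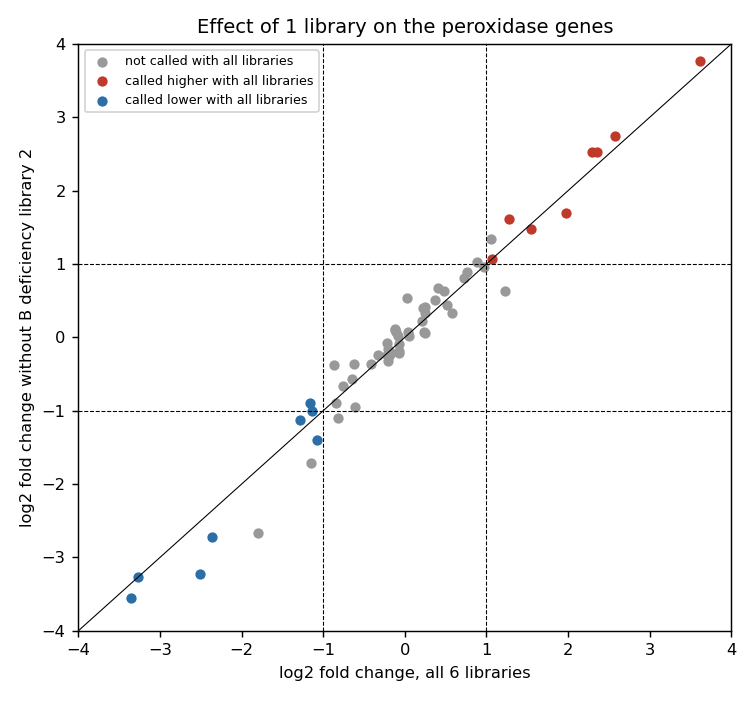
Log2FC of the 60 peroxidase genes with all 6 libraries (x axis) and without B deficiency library 2 (y axis), with the line of equal values and dashed lines at the minimum fold. Points below the line on the left, such as peroxidase 11 at -1.80 and -2.66, are genes with a lower value without library 2.

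Of the 30 genes that were not tested, 17 had some value above 0. Among these, the peroxidase 60 gene LOC103966401 had 0.56, 0.56 and 1.12 FPKM in control roots and was listed at 0 in every B deficiency library. A lignin-forming anionic peroxidase-like gene, LOC125472063, had 0.56, 0.21 and 0.07 FPKM in control roots and was likewise listed at 0 in B deficiency. Both were called lower when no minimum level was set (adjusted p = 0.000984 and 0.0466 from limma), in a test of 77 of the 90 genes that called 8 higher and 10 lower. Over all genes that test called 8.13%, 4.44% higher and 3.69% lower. No fold is given for them, since 1 group was listed at 0.

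The annotation of the family overlaps with terms used for all genes. The table assigns 89 of the 90 genes to the KEGG pathway phenylpropanoid biosynthesis, of which the polymerisation of monolignols is the last step. Of the 47 called genes of this pathway, 16 were among the 59 peroxidase genes tested (8 higher and 8 lower) and 31 were among the 136 others tested (10 higher and 21 lower). The 16 called genes also made up all called genes with the GO term peroxidase activity, of which 76 were tested. Of the 299 genes tested with the term heme binding 52 were called, these 16 among them. Over all genes tested, 8.19% were called in either direction. The term extracellular region was given to 80 of the 90 genes.

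Other genes of the same biochemistry were counted by description. Beside these counts, 4.37% of all genes tested were called higher and 3.83% lower, 8.19% in either direction. NADPH oxidases make the superoxide from which wall hydrogen peroxide forms, and none of the 6 tested was called. None of 13 superoxide dismutases, 2 catalases, 7 glutathione peroxidases or 8 peroxiredoxins, the enzymes that make or remove hydrogen peroxide inside cells and organelles, was called either. At an unadjusted p under 0.05 from limma these lists held 3 of 6, 7 of 13, 1 of 2, 3 of 7 and 2 of 8 genes in that order, and 39.5% of all genes tested passed it. Without B deficiency library 2, the superoxide dismutase LOC103953698 was called higher. It had 5.71, 0.94 and 5.36 FPKM under B deficiency and 1.36, 1.76 and 1.83 FPKM in control roots (log2FC 0.89 with library 2 and 1.697 without it). Of 10 ascorbate peroxidases, the cytosolic LOC125473727 was called higher, with means of 18.7 FPKM under B deficiency and 5.87 FPKM in control roots (log2FC 1.67, adjusted p = 0.000257 from limma). Amine oxidases, which release hydrogen peroxide in the wall, had 2 of 16 genes called higher, and germin-like proteins had 3 of 15. Laccases, the other enzymes that oxidise monolignols, had 5 of 38 genes called higher and 4 lower (23.7% in either direction). Monolignol synthesis had 3 of 89 genes higher and 7 lower (11.2% in either direction). This list matches names, so it also takes in relatives such as a 4-coumarate--CoA ligase-like 9 gene, its largest called rise. Dirigent proteins, which steer the coupling of phenols, had 2 of 27 genes called in each direction (14.8% in either). Casparian strip membrane proteins, which place peroxidases in the endodermal wall, had 1 of 6 genes higher (16.7%). This gene, LOC103951050, was low, with 1.22, 1.02 and 1.83 FPKM against 0, 0 and 0.73 FPKM (adjusted p = 0.0453), passed the minimum level only through B deficiency and was called in only 1 of the 6 fits with a library left out. Extensins had 1 of 32 genes lower (3.1%). UPBEAT1, known in Arabidopsis as a repressor of peroxidase genes in the root tip, has 1 gene in the table, LOC103956876. It had means of 33.7 ± 11.4 FPKM under B deficiency and 51.6 ± 1.43 FPKM in control roots (SD, n = 3 each). The log2FC was -0.66 (adjusted p = 0.0464 from limma), under the minimum fold. Its B deficiency libraries had 27, 46.85 and 27.2 FPKM, so library 2 was nearest to the control. Without library 2 the log2FC was -0.93 (adjusted p = 2.42e-05 from limma), still under the minimum fold. Together the lists had 17 of 270 genes called higher and 14 lower, 11.5% against 8.19% of all genes tested.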

How the data were processed

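RNA of root tips was sequenced from 3 B deficiency and 3 control libraries, grouped by the treatment in the sample labels. The authors filtered the reads, mapped them to the P. bretschneideri genome with STAR and quantified the genes by RSEM. What they deposited is FPKM, rounded to 2 decimals. The processing notes of the labels name HISAT2, Cufflinks and mouse builds instead, which do not suit pear, so the methods of the study were followed. The 2 deposited tables hold the same values for all 37815 genes. The control columns, numbered 1 to 3, were assigned through the replicate numbers in the labels. The 4 columns of group means and ratios were not used. No reference sequence was used here, so no sequence, position or neighbour of a gene is given.

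The groups were compared on log2(FPKM + 0.1) in limma 3.58.1 under R 4.3.3 (linear fit, moderated with an intensity trend) across 28129 genes averaging 0.5 FPKM or more, with Benjamini-Hochberg adjustment over all of them. DESeq2 on counts, the test of the study, needs counts and was not run. On simulated data for this comparison the step called 198 of 200 changed genes and 1 unchanged gene. Its recovery in the real libraries, where B deficiency library 2 stood apart, was not tested. This holds also for the calls near the minimum fold and for those at low FPKM. FPKM carry no counts, so depth gives no interval here, and an exact permutation test of 3 against 3 libraries cannot go below p = 0.1. Named genes were all called members, the 10 most abundant, the 5 smallest adjusted p under the minimum fold, tested members numbered 4, 44, 52, 64, 66, 71, 72 or 73, the genes next to the minimum fold, and the largest called change of each of the 14 related lists, of which only a few are printed. Genes printed beyond this rule, such as further genes of a name, untested members and a superoxide dismutase, were not fixed in advance. Members and lists were chosen with earlier results of these data known. Alternatives were other pseudocounts, minimum levels and scalings, no trend, library weights, a replicate block, no minimum fold and each library left out. Other steps ran in Python 3.11.15 with pandas 2.3.3 and numpy 2.4.6.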

Additional observations from a re-analysis of the deposited data

How the results depend on the processing

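Under no alternative at the same thresholds did the count of called peroxidase genes move by more than 1.5 times. With each library left out in turn, it was between 6 and 9 higher and between 6 and 10 lower, and without a minimum fold it was 13 and 14. Counts with the peroxidase domain as the criterion were added after the data had been seen. The median log2 fold change of the peroxidase genes turned from -0.07 to 0.032 with library weights, and was between -0.108 and 0.038 with a library left out. The ratio of summed FPKM was between 1.14 and 1.25 with a library left out, and 1.10 with the domain as the criterion. Over all genes, 1229 were called higher and 1076 lower, with 896 and 664 for log2(FPKM + 1) and 3362 and 4331 without a minimum fold. The related lists together went from 17 higher to 10 with log2(FPKM + 1), and to 53 higher and 51 lower without a minimum fold. The sign turned in 2 named genes that were not called: LOC103953444 (0.053 with library weights, between -0.238 and 0.11 with a library left out) and LOC103958949 (0.035 with library weights, between -0.199 and 0.08). Of the 16 called genes, 7 lost the call in some setting, and 10 kept it whichever of the 6 libraries was omitted. Deviations from the group mean were nearly uncorrelated between same-numbered libraries of the groups (correlations 0.04, 0.035 and -0.005). With so few libraries this cannot decide whether they were handled in pairs, which the labels do not state. The main fit did not pair them. With the replicate block, the counts stayed at 8 and 8, and 1172 and 1004 over all genes. Median-of-ratios scaling gave 9 and 8. The cause of these shifts was not tested. Values near 0.5 FPKM rest on few fragments.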
